A study of Mus musculus with 16 samples.

Results

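Pmaip1 encodes Noxa, a small BH3-only protein of the BCL2 family, and its RNA level was followed on 16 expression arrays of mouse bone marrow cells. The gene was taken as the row of the deposited table whose probe annotation gives the single symbol Pmaip1. There was 1 such row, so the account concerns 1 gene of the 19937 that have a row with a single symbol. RefSeq (GRCm38.p6) places the gene on chromosome 18 from 66458604 to 66465558, a span of 6955 bases. The gene was chosen with its levels on these arrays already known, so its own levels and differences are given as a description, with no test.

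The study set Parp-2-/- mice, which lack the DNA damage sensor poly(ADP-ribose) polymerase 2, against wild-type (WT) mice, all on the C57BL/6J background. In each genotype 2 bone marrow populations were profiled, LSK cells (Lin- Sca1+ c-Kit+, a fraction rich in stem and multipotent progenitor cells) and myeloid progenitors (MP, Lin- Sca1- c-Kit+), either 2.5 hours after 5 Gy of gamma irradiation or without irradiation. The 8 groups were irradiated and unirradiated Parp-2-/- LSK, irradiated and unirradiated WT LSK, irradiated and unirradiated Parp-2-/- MP, and irradiated and unirradiated WT MP. Each group held 2 arrays, and each array carried the RNA of a pool of at least 3 mice, so differences between single animals are not seen and every SD below is that of 2 pools. The labels give the genotype as Parp-2-/- with no description of the allele, and the age of the mice is not given in the sources used here.

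Noxa has no enzymatic activity. Its BH3 segment binds pro-survival BCL2 proteins, with a preference for Mcl-1, and Mcl-1 bound by Noxa is passed to the proteasome, which frees the pore-forming proteins Bak and Bax to permeabilise the outer mitochondrial membrane. Cytochrome c then leaves the mitochondria and assembles the apoptosome with Apaf1. Pmaip1 is a classical transcriptional target of p53 after DNA damage, alongside Bbc3, which encodes the BH3-only protein Puma, and haematopoietic progenitors are among the cells most sensitive to radiation.

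The 16 arrays had medians between 4.74 and 4.92 on the log2 scale. In LSK, Parp2 itself lay at 5.70 to 6.77 in Parp-2-/- and at 7.40 to 7.96 in WT. In MP it lay at 6.74 to 7.11 in Parp-2-/- and at 7.98 to 8.40 in WT, so the genotypes did not overlap in either population. The stem cell transcription factor Hlf read 8.36 to 9.08 in LSK and 5.71 to 6.57 in MP, and 3 of 5 LSK markers and 4 of 6 MP markers separated the populations without overlap. The Sca1 gene Ly6a, a defining marker of the LSK gate, is not used here, and the c-Kit gene Kit, shared by both gates, read 8.78 to 9.46 in LSK and 8.62 to 9.06 in MP.

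Pmaip1 was higher on every irradiated array than on any unirradiated one. The lowest of the 8 irradiated arrays read 6.45 and the highest of the 8 unirradiated arrays 5.65, which left a gap of 0.81 log2 units between them. Across all 16 arrays the level ran between 4.55 and 7.54. The irradiated Parp-2-/- LSK pools read 6.72 and 7.03, against 5.07 and 4.55 in the unirradiated Parp-2-/- LSK pools. The irradiated WT LSK pools read 7.24 and 7.25, against 5.29 and 5.31 in the unirradiated WT LSK pools. In both genotypes of LSK the irradiated and unirradiated pools stood well apart, and the SD of the WT pools was at most 0.02 in each state (n = 2). The irradiated Parp-2-/- MP pools read 6.45 and 6.63, against 5.18 and 5.10 in the unirradiated Parp-2-/- MP pools. The irradiated WT MP pools read 7.32 and 7.54, against 5.65 and 5.09 in the unirradiated WT MP pools. The widest spread between pools was thus in unirradiated WT MP (SD 0.40, n = 2) and the next in unirradiated Parp-2-/- LSK (SD 0.36, n = 2).

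**Figure D1:**
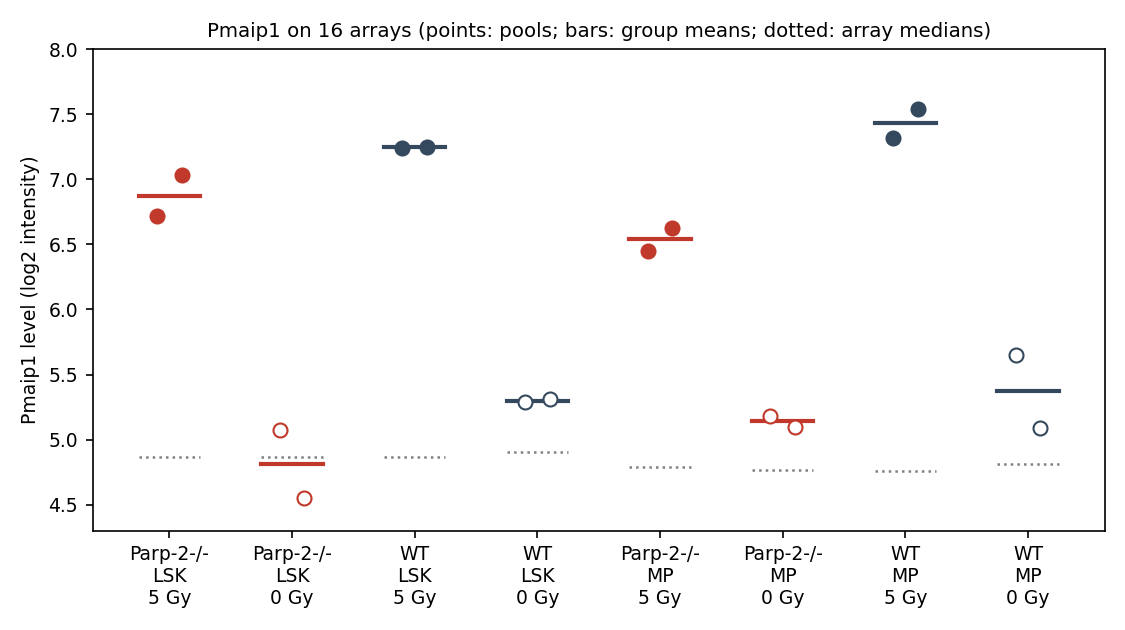
Pmaip1 level on each of the 16 arrays (log2 of array intensity, vertical axis) in the 8 groups, with each point a pool of mice, each bar the mean of 2 pools and each dotted line the median of all rows on the group's arrays. The 8 irradiated arrays sit between 6.45 and 7.54, all above the 8 unirradiated arrays, which sit between 4.55 and 5.65.

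Ordered by mean, the level was 7.43 ± 0.16 in irradiated WT MP, 7.24 ± 0.01 in irradiated WT LSK, 6.88 ± 0.22 in irradiated Parp-2-/- LSK and 6.54 ± 0.12 in irradiated Parp-2-/- MP (SD, n = 2 each). The unirradiated groups followed with 5.37 ± 0.40 in WT MP, 5.30 ± 0.02 in WT LSK, 5.14 ± 0.06 in Parp-2-/- MP and 4.81 ± 0.36 in Parp-2-/- LSK (SD, n = 2 each). The pools of unirradiated WT MP and unirradiated WT LSK overlapped. The other neighbours in this order did not overlap, but apart from the step of 0.81 between the irradiated and the unirradiated groups their gaps were 0.03 to 0.20, and the SD of Pmaip1 pooled over the 8 groups was 0.22. That spread is close to the median of 0.21 over all rows. On the irradiated arrays Pmaip1 read above 74.8% to 85.5% of all rows, and on the unirradiated arrays above 43.4% to 64.2%. The unirradiated level lay between 0.31 below and 0.85 above the median of its array, and on 1 of 8 arrays it was below that median, so it is not shown to be far above background there and the size of the rise may be understated.

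The first question the design poses is how each population and genotype responded to irradiation. Irradiated minus unirradiated, Pmaip1 differed by 2.07 ± 0.21 log2 units in Parp-2-/- LSK (SE, 4.19-fold) and by 1.94 ± 0.21 in WT LSK (SE, 3.84-fold). In MP it differed by 1.40 ± 0.21 in Parp-2-/- MP (SE, 2.64-fold) and by 2.07 ± 0.21 in WT MP (SE, 4.18-fold). Irradiated and unirradiated pools did not overlap in any of the 4. Among the 22961 rows tested, the rise of Pmaip1 ranked 39th from the highest in Parp-2-/- LSK, 59th in WT LSK, 96th in Parp-2-/- MP and 38th in WT MP. These arrays measure RNA of whole pools, so a change in the share of cells that carry the transcript and a change in RNA per cell cannot be told apart.

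Some marker lists also separated by irradiation within each population, and their part in the Pmaip1 rise was not tested. Each list was summed on the linear scale and given as log2. Of the 7 lists, 2 were lower on all 4 irradiated LSK arrays than on the 4 unirradiated ones, and the other 5 overlapped. The LSK list ran 10.66 to 11 in irradiated LSK and 11.15 to 11.18 in unirradiated LSK, although none of its 5 measured genes separated all 8 LSK arrays by itself. The stromal and endothelial list ran 7.79 to 8.12 in irradiated LSK and 8.26 to 8.82 in unirradiated LSK, and 1 of its 4 genes separated them, Pecam1, an adhesion molecule also found on blood progenitors, at 7.13 to 7.58 in irradiated LSK and 7.79 to 8.50 in unirradiated LSK. The defining stromal genes Cdh5 and Cxcl12 were below the array median on all 16 arrays. Col1a1, also on this list, was above that median on all 16. In WT LSK taken alone, all 4 genes of the list were lower in the irradiated pools without overlap. In Parp-2-/- LSK only Pecam1 was lower, while Cdh5 and Cxcl12 were higher.

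In MP 1 list separated, T and NK cells, at 5.71 to 5.89 in irradiated MP and 5.95 to 6.21 in unirradiated MP. None of its 4 genes separated all 8 MP arrays by itself, and 3 of them, Cd3e, Cd3g and Ncr1, were below the array median on all 16 arrays. Within single genotypes, with 2 pools in each state, 4 of 7 lists separated in Parp-2-/- LSK, 3 in WT LSK, 2 in Parp-2-/- MP and 5 in WT MP. So few pools can separate by chance, and no share over other gene sums was computed, so these counts are a description only. In WT MP the neutrophil list ran 7.83 to 8.23 in irradiated and 7.29 to 7.49 in unirradiated pools, and the macrophage list 7.54 to 7.64 in irradiated and 7.27 to 7.44 in unirradiated pools. In Parp-2-/- LSK the MP list ran 11.70 to 11.86 in irradiated pools and read 11.57 in both unirradiated pools.

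The second question is whether the genotypes differed. In irradiated cells the Parp-2-/- pools lay below the WT pools in both populations. Parp-2-/- minus WT, Pmaip1 differed by -0.89 ± 0.21 log2 units in irradiated MP (SE, 1.86-fold higher in WT) and by -0.37 ± 0.21 in irradiated LSK (SE, 1.29-fold higher in WT). Without irradiation the difference was -0.23 ± 0.21 in MP (SE), where the pools overlapped, and -0.49 ± 0.21 in LSK (SE), where they did not. The difference in irradiated MP was thus the largest of these 4. Without WT MP pool 1 the difference in unirradiated MP was 0.05.

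Marker transcripts also differed between the genotypes in the same irradiated MP pools, 2 on each side, and their part in the Pmaip1 difference was not tested. Of the 6 MP markers, 3 were above WT without overlap and 3 below it. Those above were the erythroid genes Car1, at 11.15 and 11.33 in Parp-2-/- against 10.59 and 10.76 in WT, Gata1, at 5.65 and 5.85 against 5.56 and 5.30, and Klf1, at 5.91 and 6.26 against 5.67 and 5.76. Those below were the granule protein genes Elane, at 9.08 and 8.95 in Parp-2-/- against 9.71 and 9.90 in WT, Mpo, at 11.84 and 11.63 against 11.97 and 12.00, and Ctsg, at 10.73 and 10.38 against 10.90 and 10.85. The summed MP list (log2) ran 12.91 to 13.02 in Parp-2-/- and 13.04 to 13.09 in WT. In unirradiated MP 0 of the 6 separated the genotypes. The share of all rows that separate in this way was not counted, so these counts have no background beside them. By limma 1.79% of all rows had an unadjusted p under 0.05 between genotypes in irradiated MP, and 0.00871% were called.

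The summed mature neutrophil list read 6.73 to 6.96 in irradiated Parp-2-/- MP and 7.83 to 8.23 in irradiated WT MP. Of its 4 genes 1 was below WT without overlap, S100a8, at 6.07 and 5.43 in Parp-2-/- and 7.97 and 7.44 in WT, and 1 was above it. Over both genotypes of irradiated MP, Ngp read 3.67 to 4.18, Ltf 3.16 to 3.71 and Camp 4.64 to 5.01. The lower neutrophil sum in irradiated Parp-2-/- MP thus came mainly from S100a8. The defining neutrophil gene Ltf was below the array median on all 16 arrays. Without irradiation the neutrophil sum was also lower in Parp-2-/- MP, at 6.59 to 6.96, than in WT MP, at 7.29 to 7.49. The summed macrophage list read 7.18 to 7.24 in irradiated Parp-2-/- MP and 7.54 to 7.64 in irradiated WT MP, and 1 of its 4 genes, Cd68, was below WT, with Adgre1 and Mrc1 below the array median on all 16 arrays. In irradiated LSK the neutrophil sums overlapped, at 6.28 to 6.40 in Parp-2-/- and 6.12 to 6.54 in WT, while the T and NK sum was 6.05 to 6.09 in Parp-2-/- and 6.12 to 6.19 in WT, and the stromal sum 7.88 to 8.12 in Parp-2-/- and 7.79 to 7.86 in WT.

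The third question is whether the 2 populations differed. LSK minus MP, Pmaip1 differed by 0.34 ± 0.21 log2 units in irradiated Parp-2-/- cells (SE) and by -0.19 ± 0.21 in irradiated WT cells (SE). In unirradiated cells it differed by -0.33 ± 0.21 in Parp-2-/- (SE) and by -0.07 ± 0.21 in WT (SE). The pools overlapped in unirradiated WT cells. The median of all rows for this contrast was itself 0.09. After quantile normalization of the table the value in irradiated WT cells was 0.04, so its direction is not settled.

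The design also gives differences of differences. The radiation rise of Pmaip1 in Parp-2-/- minus that in WT was 0.12 ± 0.30 log2 units in LSK and -0.66 ± 0.30 in MP (SE). The rise in LSK minus that in MP was 0.67 ± 0.30 in Parp-2-/- cells and -0.12 ± 0.30 in WT cells (SE). The 2 largest of these values share the Parp-2-/- MP arrays, where the rise was smallest. The value in WT cells was 0.13 after quantile normalization.

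The genes around Noxa were read from 8 lists of 77 genes, by role, of which 69 have a row with a single symbol. The others, Bax, Trp53 and Cdkn1a among them, are not used here. The lists were chosen with results of these arrays known, so their counts describe the arrays and give no independent support. A gene is called where limma's adjusted p (Benjamini-Hochberg over all 22961 rows) was under 0.05. Of the 69 genes, 16 were called higher and 2 lower in irradiated Parp-2-/- LSK, where 0.727% of all rows were called higher and 0.74% lower (1.47% either way). In irradiated WT LSK 16 were higher and 0 lower, with 1.18% of all rows called higher and 0.623% lower (1.8% either way). In irradiated Parp-2-/- MP 18 were higher and 1 lower, with 0.505% of all rows called higher and 0.0827% lower (0.588% either way). In irradiated WT MP 17 were higher and 0 lower, with 0.571% of all rows called higher and 0.1% lower (0.671% either way).

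None of the other 7 BH3-only genes was called in any of the 4 radiation responses by limma. At an unadjusted p under 0.05 there were 3 of 7 in Parp-2-/- LSK, 0 in WT LSK, 0 in Parp-2-/- MP and 0 in WT MP, where the shares of all rows under 0.05 were 11.8%, 14.7%, 5.75% and 6.24%. The 3 were Bbc3, above 0, and Bid and Bmf, below 0. Bbc3 read 5.82 and 5.97 in irradiated Parp-2-/- LSK against 5.63 and 5.34 unirradiated, and 5.98 and 6.01 in irradiated WT LSK against 5.93 and 5.50 unirradiated. In MP it read 5.45 and 5.57 in irradiated Parp-2-/- against 5.66 and 5.29 unirradiated, and 5.78 and 5.76 in irradiated WT against 5.31 and 5.46 unirradiated. Its differences were 0.41, 0.28, 0.03 and 0.39 in Parp-2-/- LSK, WT LSK, Parp-2-/- MP and WT MP, each with an SE of 0.18, and limma's adjusted p values in the same order were 0.39, 0.53, 1 and 0.81. Bcl2l11, which encodes Bim, differed by 0.44, -0.03, 0.48 and 0.48 in that order (SE 0.28), and was not called in any of them. A direct test of Pmaip1 against these genes was not made.

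Of the pore formers, Bak1 and the less studied Bok were measured, and neither was called in any radiation response by limma. At an unadjusted p under 0.05 there was 1 of 2 in Parp-2-/- LSK, 1 in WT LSK, 1 in Parp-2-/- MP and 0 in WT MP, against 11.8%, 14.7%, 5.75% and 6.24% of all rows. Bak1, the partner that Mcl-1 holds in check, differed by -0.33, -0.67, -0.42 and -0.13 (SE 0.19) in Parp-2-/- LSK, WT LSK, Parp-2-/- MP and WT MP.

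Of the 5 pro-survival genes measured, only Mcl1, the main binding partner of Noxa, was called, and in 1 of the 4 responses. In irradiated Parp-2-/- LSK it read 7.51 and 8.09, against 8.95 and 8.83 in unirradiated Parp-2-/- LSK. In irradiated WT LSK it read 8.16 and 8.62, against 8.92 and 9.09 in unirradiated WT LSK. The irradiated pools lay below the unirradiated pools in both genotypes of LSK. In MP it read 8.18 and 8.26 in irradiated Parp-2-/- against 8.73 and 8.44 unirradiated, and 8.35 and 8.49 in irradiated WT against 8.74 and 8.37 unirradiated. The MP pools overlapped in WT and not in Parp-2-/-. Mcl1 fell by 1.09 ± 0.22 log2 units in Parp-2-/- LSK (SE, limma adjusted p = 0.029), while the differences were -0.61 in WT LSK (adjusted p = 0.20), -0.36 in Parp-2-/- MP (adjusted p = 1) and -0.14 in WT MP (adjusted p = 1). The call in Parp-2-/- LSK was kept in 9 of the 16 fits that left out 1 array each, and the adjusted p was 0.23 with the LSK arrays fitted alone. Bcl2 and Bcl2l1 encode partners that Noxa binds weakly, and neither was called. Bcl2 differed by -0.86, -0.52, -0.17 and -0.16 (SE 0.30) in Parp-2-/- LSK, WT LSK, Parp-2-/- MP and WT MP. Of all rows 0.74% were called lower in Parp-2-/- LSK. In the same order 2, 1, 0 and 0 of the 5 had an unadjusted p under 0.05, against 11.8%, 14.7%, 5.75% and 6.24% of all rows. The 2 in Parp-2-/- LSK were Mcl1 and Bcl2.

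**Figure D2:**
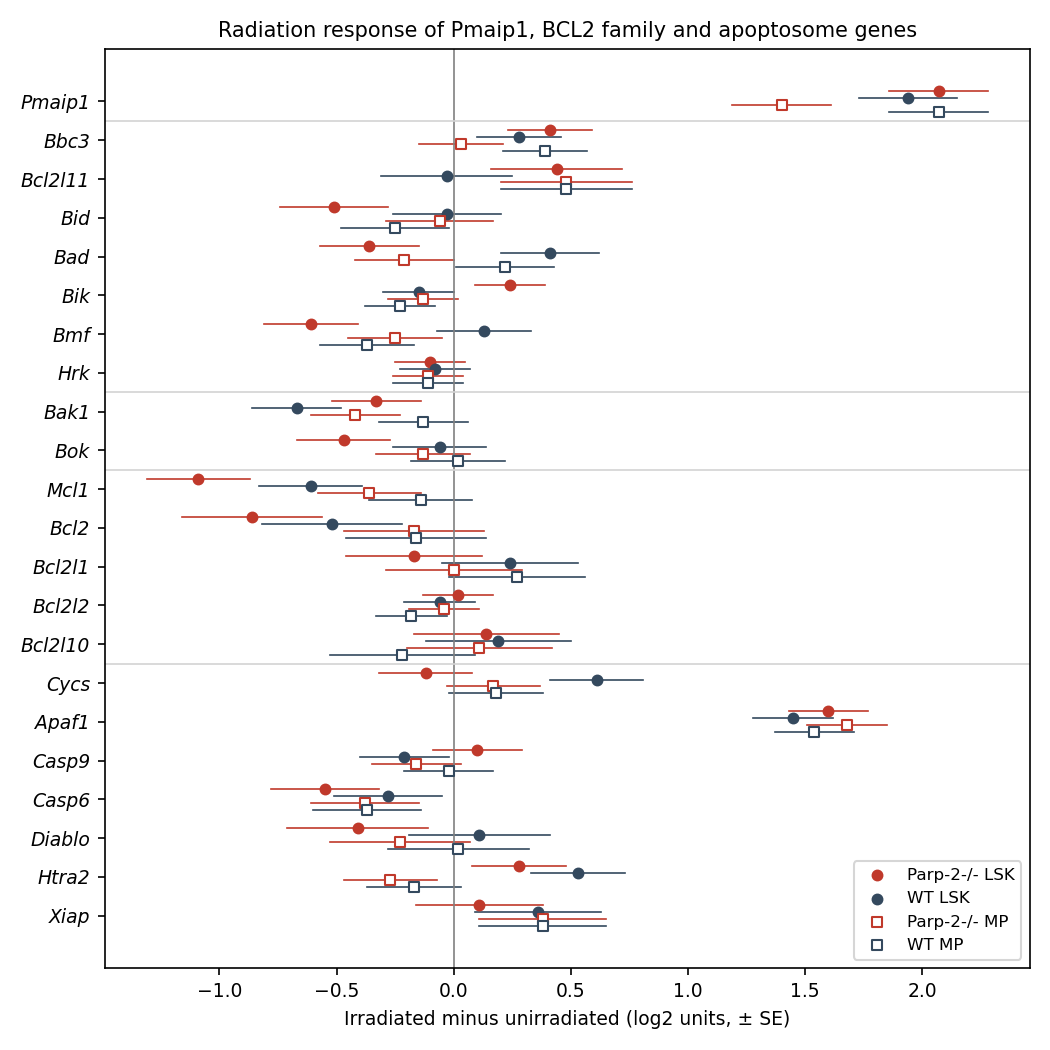
Irradiated minus unirradiated level (log2 difference, horizontal axis) of Pmaip1 and of the measured BCL2 family and apoptosome genes in the 4 combinations of genotype and population, with bars for the standard error of the fit. Pmaip1 lies between 1.40 and 2.07 and Apaf1 between 1.45 and 1.68, while Mcl1 lies between -1.09 and -0.14.

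Downstream of the pore, Apaf1, the scaffold of the apoptosome, rose in all 4 responses and was the 1 gene of 7 measured on this list that was called. It read 8.39 and 8.65 in irradiated Parp-2-/- LSK against 7.08 and 6.77 unirradiated, and 8.70 and 8.93 in irradiated WT LSK against 7.20 and 7.52 unirradiated. In MP it read 9.11 and 9.01 in irradiated Parp-2-/- against 7.32 and 7.45 unirradiated, and 8.99 and 9.18 in irradiated WT against 7.54 and 7.55 unirradiated. The differences were 1.60, 1.45, 1.68 and 1.54 (SE 0.17) in Parp-2-/- LSK, WT LSK, Parp-2-/- MP and WT MP, with limma adjusted p values of 0.00065, 0.0013, 0.00055 and 0.00095. Irradiated and unirradiated pools did not overlap in any group. Cytochrome c (Cycs), caspase 9 (Casp9), Diablo, Htra2, Casp6 and Xiap were not called in any radiation response. Of all rows 0.727%, 1.18%, 0.505% and 0.571% were called higher, in the same order. With Apaf1 included, 2, 3, 1 and 1 of the 7 had an unadjusted p under 0.05, against 11.8%, 14.7%, 5.75% and 6.24% of all rows. They included Cycs (0.61 ± 0.20, SE) and Htra2 (0.53 ± 0.20, SE) in WT LSK and Casp6 (-0.55 ± 0.23, SE) in Parp-2-/- LSK.

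Most other measured p53 targets linked to cell death rose with Pmaip1. Of 13 measured, 9 were called higher in Parp-2-/- LSK, 9 in WT LSK, 10 in Parp-2-/- MP and 9 in WT MP, and none was called lower. Of all rows 0.727%, 1.18%, 0.505% and 0.571% were called higher, in the same order. All 13 differences were above 0 in each response, with medians of 1.34, 1.75, 1.79 and 2.13 log2 units, while the medians of all rows were -0.00, -0.02, -0.01 and -0.04. Perp was barely so in Parp-2-/- LSK, where its difference rounds to 0 (SE 0.23). The death receptor gene Fas differed by 3.28, 2.69, 3.94 and 4.04 (SE 0.36) in Parp-2-/- LSK, WT LSK, Parp-2-/- MP and WT MP. Tnfrsf10b, the mouse TRAIL receptor, differed by 2.65, 3.13, 2.60 and 3.72 (SE 0.26), and Trp53inp1, a p53-induced nuclear protein, by 2.42, 3.40, 3.39 and 3.61 (SE 0.25). These 3 were called higher in all 4 responses and exceeded the rise of Pmaip1 in each.

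Of 15 targets linked to cell cycle arrest, feedback and repair, 6 were called higher in Parp-2-/- LSK, 6 in WT LSK, 7 in Parp-2-/- MP and 7 in WT MP, and 0 were called lower. The shares of all rows called higher were 0.727%, 1.18%, 0.505% and 0.571% in the same order. Not all of the 15 rose: 4 differences were below 0 in Parp-2-/- LSK, 4 in WT LSK, 4 in Parp-2-/- MP and 1 in WT MP. Xpc differed by -0.71, -0.56, -0.46 and 0.02 (SE 0.25) in that order and was not called. Mdm2, which encodes the ubiquitin ligase that restrains p53, read 9.95 and 10.13 in irradiated Parp-2-/- LSK against 7.97 and 7.96 unirradiated, and 9.96 and 10.07 in irradiated WT LSK against 8.36 and 8.16 unirradiated. In MP it read 9.97 and 10.03 in irradiated Parp-2-/- against 7.75 and 7.80 unirradiated, and 9.99 and 10.28 in irradiated WT against 7.98 and 7.87 unirradiated. Its differences were 2.07, 1.76, 2.22 and 2.21 (SE 0.15) in Parp-2-/- LSK, WT LSK, Parp-2-/- MP and WT MP. Polk, a translesion polymerase, differed by 2.21, 3.28, 2.96 and 2.67 (SE 0.24). Over both p53 lists 14 of 28 genes were called higher in all 4 responses, 8 linked to death and 6 to arrest or repair. The share of all rows called higher in all 4 was not counted, but it cannot exceed the 0.505% called higher in Parp-2-/- MP.

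The promoters of the p53 list genes show what a p53 half-site looks like in genes that rose with Pmaip1. The RefSeq tables (GRCm38.p6) give 300 bases around a gene start, 250 before and 50 after it. They hold no window for Pmaip1. The half-site searched for was the 10-base p53 half-site, on both strands. It lay in 8.36% of all windows and in 9.55% of genes with a window. Among the p53 list genes with a window it lay in 10 of 21 (47.6%), in 5 of the 12 called higher in all 4 responses (41.7%) and in 5 of the other 9 (55.6%). Among BCL2 family genes it lay in 1 of 12 (8.33%). The 5 genes of the higher group that hold it are printed 5′ to 3′ on the strand of the gene, with 10 bases on each side and the half-site in capitals, and their matches are a description of these letters only.
Mdm2, chr10:117710925-117710954, minus strand: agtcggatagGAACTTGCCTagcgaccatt
Ccng1, chr11:40755452-40755481, minus strand: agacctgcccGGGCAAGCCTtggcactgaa
Ei24, chr9:36797325-36797354, minus strand: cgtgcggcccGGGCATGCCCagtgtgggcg
Gtse1, chr15:85859945-85859974, plus strand: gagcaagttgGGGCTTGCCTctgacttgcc
Polk, chr13:96519399-96519428, minus strand: catgtagcttGAACTAGCCTcaaacttatt
Counted from the gene start, the half-site begins at base -186 in Mdm2, -185 in Ccng1, -10 in Ei24, 9 in Gtse1 and -231 in Polk.

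Of 13 measured regulators reported to act on the Noxa gene, Myc, which drives Pmaip1 in several systems, was the 1 called, and it was lower. Of all rows 0.74% were called lower in Parp-2-/- LSK and 0.0827% in Parp-2-/- MP. Myc fell by 1.16 ± 0.19 log2 units in Parp-2-/- LSK (SE, limma adjusted p = 0.011) and by 1.12 ± 0.19 in Parp-2-/- MP (SE, adjusted p = 0.019). In WT its differences were -0.50 in LSK (adjusted p = 0.24) and -0.87 in MP (adjusted p = 0.079), and neither genotype by irradiation difference was called for Myc. The Parp-2-/- LSK call was lost without irradiated or unirradiated pool 1 of that group (highest adjusted p = 0.058), and the adjusted p was 0.10 with the LSK arrays fitted alone. The Parp-2-/- MP call was lost without irradiated pool 2 or either unirradiated pool of that group (highest adjusted p = 0.27). Atf3, a stress-induced factor, differed by -0.49, -2.08, -1.54 and -1.56 in Parp-2-/- LSK, WT LSK, Parp-2-/- MP and WT MP and was not called. In that order Atf4 differed by -0.97, -0.82, -0.86 and -0.44 (SE 0.25) and Foxo3 by 0.43, 0.22, 0.44 and 0.37 (SE 0.15). Neither was called. At an unadjusted p under 0.05 there were 3, 3, 4 and 4 of the 13 regulators, Myc among them each time. The shares of all rows were 11.8%, 14.7%, 5.75% and 6.24%. Of 7 ubiquitin system genes that act on Noxa or Mcl-1 protein, 0 were called in any radiation response (limma), and at an unadjusted p under 0.05 there were 2 of 7 in Parp-2-/- LSK (11.8% of all rows), 0 in WT LSK (14.7%), 0 in Parp-2-/- MP (5.75%) and 0 in WT MP (6.24%).

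Between genotypes, 0 of the 69 listed genes were called in any of the 4 comparisons (limma). At an unadjusted p under 0.05 there were 0 of 69 in irradiated MP (1.79% of all rows), 8 in irradiated LSK (9.55%), 1 in unirradiated MP (1.08%) and 11 in unirradiated LSK (9.31%). Over all rows 0.00871% were called in irradiated MP, 0.0174% in irradiated LSK, 0.00436% in unirradiated MP and 0 in unirradiated LSK. In irradiated MP the 69 genes ranged from -0.56 (Btg2, SE 0.46) to 0.31 (Fbxw7), and all 69 were above the -0.89 of Pmaip1. Among the 22961 rows tested, Pmaip1 stood at 22921 counted from the highest in irradiated MP, so other rows lay lower still. Pmaip1 and the lists were chosen with results known, so its place beside them is a description. Tnfrsf10b differed by -0.55 ± 0.26 there (SE), and 11 of the 13 p53 targets linked to death were below 0, with a median of -0.11 against 0.00 for all rows. In irradiated LSK 10 of the 69 were below the -0.37 of Pmaip1, among them Zmat3, a p53-induced zinc finger gene (-1.10 ± 0.28, SE), and Mcl1 (-0.59 ± 0.22, SE, limma adjusted p = 0.42). Without WT LSK irradiated pool 1, Btrc was called in irradiated LSK (-1.60, limma adjusted p = 0.049), and without WT LSK unirradiated pool 1, Ei24 was called in unirradiated LSK (1.67, adjusted p = 0.018).

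**Figure D3:**
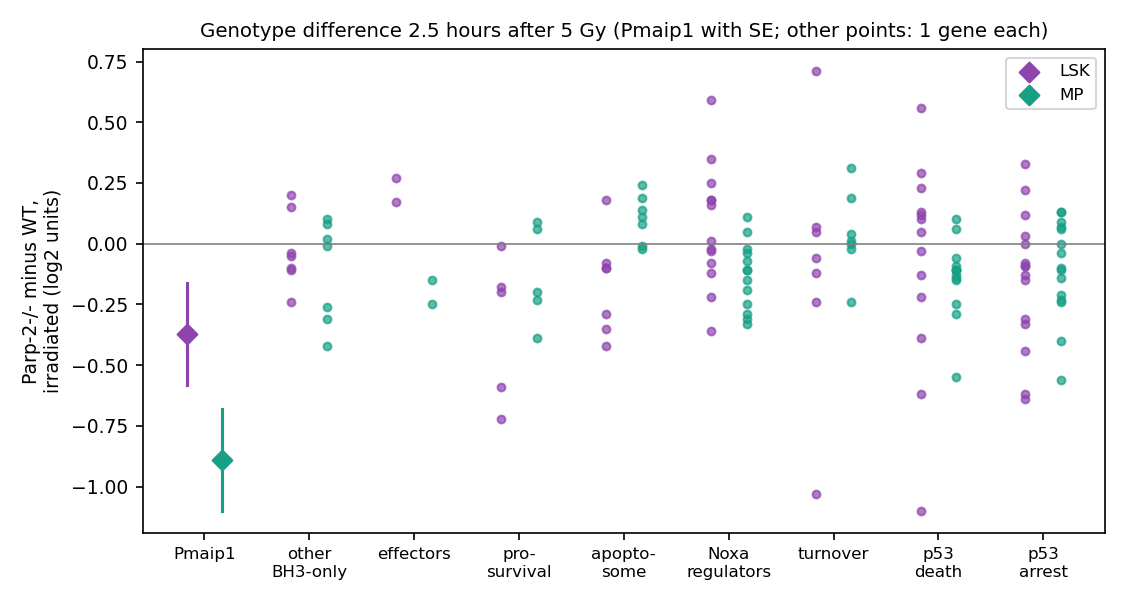
Parp-2-/- minus WT level (log2 difference, vertical axis) after irradiation, for Pmaip1 and the 69 listed genes, grouped by list along the horizontal axis. LSK and MP are shown in different colours, each point is 1 gene, and Pmaip1 carries its SE. In MP Pmaip1, at -0.89, lies below all 69 genes, which range from -0.56 to 0.31, while in LSK 10 of them lie below its -0.37. Rows that are not shown lie below Pmaip1 in MP, and Pmaip1 and the lists were chosen with results known.

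For the differences of differences 0 of the 69 were called in any of the 4 (limma), and over all rows 0.00871% were called for genotype by irradiation in LSK and 0 for the other 3. At an unadjusted p under 0.05 there were 11 of 69 for genotype by irradiation in LSK (9.52% of all rows), 1 in MP (0.867%), 7 for cell type by irradiation in Parp-2-/- (5.36%) and 5 in WT (5.54%). For genotype by irradiation in MP, Tnfrsf10b (-1.12 ± 0.37, SE) was the 1 gene of 69 below the -0.66 of Pmaip1.

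Between LSK and MP the counts of listed genes called were small. They are given beside the shares of all rows and are not read as a result about these genes. In irradiated Parp-2-/- cells 0 of 69 were higher in LSK and 2 lower, the apoptosome genes Cycs (-0.80) and Casp6 (-0.94), where 0.88% of all rows were called higher and 3.19% lower. In irradiated WT cells 0 were higher and 1 lower, Bak1 (-0.94 ± 0.19, SE, limma adjusted p = 0.028), where 0.575% of all rows were called higher and 1.87% lower. In unirradiated Parp-2-/- cells 2 were higher and 2 lower, where 0.827% of all rows were called higher and 2.52% lower. In unirradiated WT cells 1 was higher and 4 lower, where 1.29% of all rows were called higher and 3.93% lower. None of these calls was kept in all 16 fits that left out 1 array each.

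The 8 genes whose profiles over the 16 arrays lay nearest to that of Pmaip1, by the root mean square difference of values centred on each gene's mean, were Mdm2 (0.32 log2 units), Apaf1 (0.35), Epha2 (0.35), Rap2a (0.36), Cep170b (0.36), Sesn2 (0.36), Ddit4l (0.38) and Arap2 (0.38). The median over the 17159 genes compared was 1.03. Mdm2, Apaf1 and Sesn2, a stress-responsive regulator of mTORC1, stand on the lists above, and Epha2 encodes an ephrin receptor. Their likeness came mostly from the step between irradiated and unirradiated arrays. Within the 8 irradiated arrays Pearson's r with Pmaip1 ran from -0.04 for Arap2 to 0.77 for Ddit4l, and within the 8 unirradiated arrays from -0.43 for Epha2 to 0.77 for Sesn2. These points share the arrays and their normalization. In irradiated MP the Parp-2-/- minus WT difference was -0.88 ± 0.30 for Ddit4l (SE), a DDIT4-related inhibitor of mTOR signalling, and between -0.29 and -0.02 for the other 7. The 8 genes were picked for likeness over these same arrays, so these values are a description. Without WT LSK unirradiated pool 2, 5 of the 8 named genes were still among the nearest 8.

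**Figure D4:**
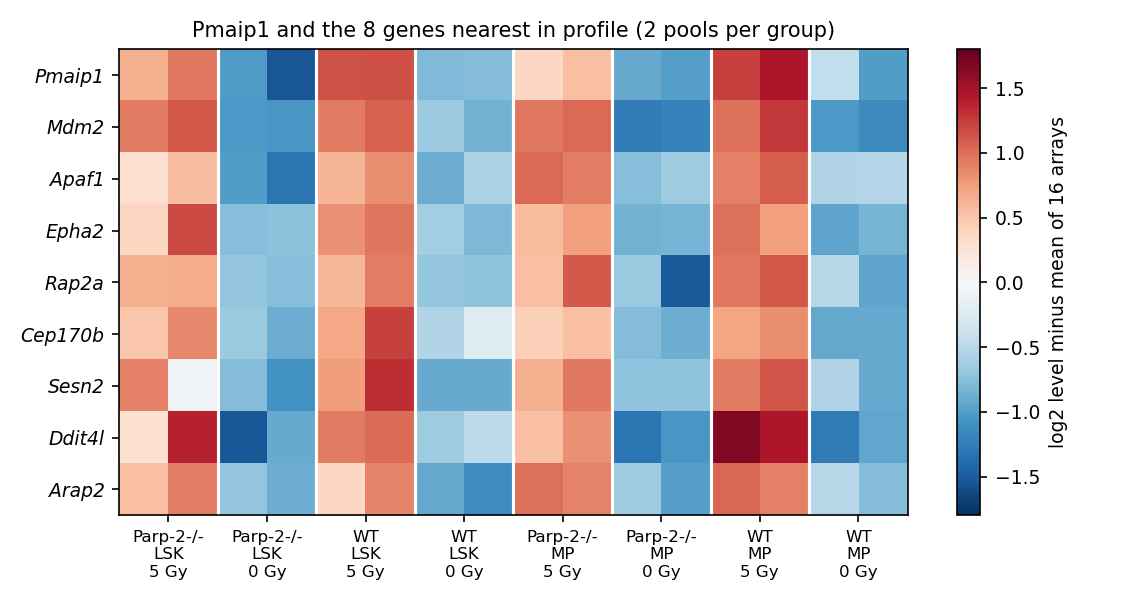
Level of Pmaip1 and its 8 nearest genes on each of the 16 arrays, each row centred on its own mean (log2 units, colour scale). In all rows the irradiated arrays are the higher ones. In irradiated MP the means of Pmaip1 and of all 8 nearest genes are lower in Parp-2-/- than in WT, most so for Pmaip1 and Ddit4l.

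On chromosome 18 the 5 genes with a row on each side of Pmaip1 were looked at for a change nearby. Their starts lie between -524 kb and 766 kb from its own, and include the lymphatic growth gene Ccbe1, the melanocortin receptor gene Mc4r, the cargo receptor gene Lman1 and the olfactory G protein gene Gnal. By limma 0 of the 10 were called in any of the 4 radiation responses, where 1.47%, 1.8%, 0.588% and 0.671% of all rows were called in Parp-2-/- LSK, WT LSK, Parp-2-/- MP and WT MP, so a count of 0 among 10 is near the background. At an unadjusted p under 0.05 there were 1 in Parp-2-/- LSK (11.8% of all rows), 2 in WT LSK (14.7%), 0 in Parp-2-/- MP (5.75%) and 0 in WT MP (6.24%). Their differences ran from -0.51 to 0.32 in Parp-2-/- LSK, from -0.36 to 0.55 in WT LSK, from -0.35 to 0.18 in Parp-2-/- MP and from -0.22 to 0.23 in WT MP. Taking 10 genes on each side, 1 was called in WT LSK, Malt1 (-1.07 ± 0.24, SE, limma adjusted p = 0.048), and leaving out WT LSK irradiated pool 2 called 1 of the 10 nearest.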

How the data were processed

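Total RNA of 16 pools was hybridised to Affymetrix arrays. The deposited table holds 34760 rows of log2 values made by the authors. RMA, limma, affy 2.10 and R 2.15 appear in the submitters' processing notes, without role or order. No source used here gives the genome build. Rows were named through the platform annotation: 21640 had a single symbol, 1321 several and 11799 none, and 21553 matched RefSeq by Entrez ID. The 22961 rows with a symbol were fitted with limma 3.58.1 in R 4.3.3 as 8 group means over all 16 arrays, which share 1 estimate of spread, and p-values, two-sided, were adjusted by Benjamini-Hochberg within each comparison and called under 0.05. The number of arrays limits the precision, and p-values measure the spread between pools. The fit was tested on simulated data for the WT LSK radiation response over 22961 rows: it called 40 of 100 rows changed by 1 log2 unit, 92 of 100 changed by 2, and 8 unchanged rows among 140 calls. A listed gene with several rows used the row of highest mean. Listed genes were named with values where they were among the 4 largest changes of their list in at least 1 comparison, besides Mcl1 and Bbc3; the 8 nearest genes and 5 neighbours on each side followed from fixed rules, with predicted and small RNA genes unnamed. Malt1, and Btrc and Ei24 in the genotype comparisons, were named after their values were seen. Pmaip1, the lists and the tests were chosen with earlier results of these data known. Alternatives were quantile normalization, centring on array medians, a filter on dim rows, all rows tested, each population fitted alone, pool number as a block, and leaving out each array.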

Additional observations from a re-analysis of the deposited data

How the results depend on the processing

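Every irradiated array read above every unirradiated one, so leaving out 1 array could not reverse the radiation rise of Pmaip1. The 16 fits that left out 1 array show only how far its size moved. The ranges over these fits were 1.81 to 2.32 in Parp-2-/- LSK, 1.93 to 1.95 in WT LSK, 1.32 to 1.49 in Parp-2-/- MP and 1.78 to 2.35 in WT MP. For Parp-2-/- minus WT they were -1.002 to -0.78 in irradiated MP, -0.52 to -0.21 in irradiated LSK, -0.51 to 0.052 in unirradiated MP and -0.75 to -0.23 in unirradiated LSK. For LSK minus MP they were 0.18 to 0.49 in irradiated Parp-2-/-, -0.30 to -0.08 in irradiated WT, -0.59 to -0.072 in unirradiated Parp-2-/- and -0.35 to 0.22 in unirradiated WT. For genotype by irradiation they were -0.13 to 0.38 in LSK and -0.94 to -0.38 in MP, and for cell type by irradiation 0.41 to 0.92 in Parp-2-/- and -0.40 to 0.16 in WT. Under quantile normalization LSK minus MP in irradiated WT was 0.040, and cell type by irradiation was 0.89 in Parp-2-/- and 0.13 in WT. The cause was not tested.

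The counts of listed genes called after irradiation ran 13 to 19 in Parp-2-/- LSK, 14 to 17 in WT LSK, 8 to 20 in Parp-2-/- MP and 10 to 18 in WT MP when 1 array was left out. The count in Parp-2-/- MP was 11 and 8 without its irradiated pools 1 and 2, and 11 and 9 without its unirradiated pools 1 and 2. The count in WT MP was 10 without its irradiated pool 2 and 11 without its unirradiated pool 2. With the LSK arrays fitted alone, on fewer arrays, it was 9 in Parp-2-/- LSK and 9 in WT LSK. Genotype counts ran 0 to 1 in both LSK comparisons and 0 in both MP comparisons. Counts for LSK against MP ran 0 to 8 in irradiated Parp-2-/-, 0 to 4 in irradiated WT, and 0 to 6 in both unirradiated comparisons. With all rows tested these counts were 0 in irradiated Parp-2-/-, 0 in irradiated WT, 1 in unirradiated Parp-2-/- and 2 in unirradiated WT, and under quantile normalization the count in irradiated WT was 0. Of the 8 nearest genes 5 to 8 were kept when 1 array was left out. Neighbours called in WT LSK numbered 1 with 10 genes on each side, and 0 to 1 when 1 array was left out. Of 1792 recomputed values for single genes, 229 lost their call and 0 changed direction.

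The labels number the pools and do not say whether same-numbered pools came from the same mice. Over 28 pairs of groups the correlation of same-numbered pools ran from -0.17 to 0.23, and 2 exceeded 0.1. With 2 pools a group such values cannot settle whether the samples are paired. With the pool number as a replicate block Pmaip1 differences were the same by construction, since each group holds 1 pool of each number. The radiation counts with this block were 17, 17, 20 and 18 in Parp-2-/- LSK, WT LSK, Parp-2-/- MP and WT MP, and the count for LSK against MP in unirradiated Parp-2-/- was 2. Averaging several Pmaip1 rows gave no value, as there is 1 row. With 2 arrays a group, small differences are not resolved, and dim rows may understate changes.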
